A study of Danio rerio with 25 samples.

Results

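Zebrafish larvae of a dexamethasone (DEX) course were compared on D4 and D3, the first step of a course sampled daily up to D7. The comparison was chosen by day label: 3 libraries of D4 (a, b and c) against 3 libraries of D3 with the same letters, 6 of the 25 libraries of the series. D4 larvae were labelled as day 4 after DEX and D3 larvae as day 3 after DEX, so DEX was named for both groups. The labels name no vehicle-treated libraries of the course. The methods of the study state exposure to 10 µM DEX from D3 to D7 and count the same days as days post-fertilization, so it is not clear from the sources whether D3 larvae had met the drug before sampling. The model was built in whole larvae with a fluorescent reporter of Sp7, a transcription factor of bone-forming osteoblasts, and was meant to mimic glucocorticoid-induced osteoporosis. Each library was made from RNA of whole larvae. The sources used here do not say how many larvae went into a library or whether libraries came from separate clutches. The p-values thus measure the spread between libraries only, and in the main fit only what is left after the letter is taken out. DEX and normal growth over a day cannot be told apart in this design.

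DEX is a synthetic glucocorticoid. It binds the glucocorticoid receptor in the cytoplasm, and the bound receptor enters the nucleus and raises or lowers the transcription of target genes. In vertebrates these targets include feedback proteins of the receptor itself (FKBP5), enzymes of glucose production in the liver (PCK1) and inhibitors of the growth kinase mTORC1 (DDIT4). Over the same days of life zebrafish larvae live on yolk, their pancreas and gut mature, their retina becomes functional and ionocytes in the skin take over salt balance and the release of ammonia.

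The D4 libraries held 15444248 (a), 14715318 (b) and 21812411 (c) counts, and the D3 libraries held 15179891 (a), 15604710 (b) and 18391028 (c) counts. Of 32520 genes, 21750 were counted well enough to be tested. Of the 24 gene identifiers matched to a fixed set of tissue markers (muscle, lens, blood, pancreas, liver, eye, skin, bone and immune cells), 23 had counts in all 6 libraries, among them SP7 with 5.28 to 7.79 CPM (read counts of a gene relative to the scaled library total) on D4 and 5.68 to 6.92 CPM on D3. The osteoblast regulator runx2b and the hatching enzyme gene he1.2 had as few as 4 counts in a library.

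The c libraries stood apart. Taken over all genes, log2 CPM differed with a root mean square of 0.806 and 0.899 between D4 c and D4 a and b, against 0.461 between D4 b and D4 a. It was 0.986 and 0.947 between D3 c and D3 a and b, against 0.409 between D3 b and D3 a. The library D3 c lay at 0.804 from D4 a, at 0.901 from D4 b and at 0.461 from D4 c. The step between the days was accordingly small within letter c, at 0.461, against 0.732 within letter a and 0.805 within letter b. Organ markers did not all place the library labelled D3 c on the same side. The skin keratin krt4 had 6175, 7879 and 7114 CPM in D3 a, b and c, against 3649 to 4630 CPM on D4. It thus set D3 c with D3 a and b. Markers of pancreas, cones and blood and the liver gene fabp10a set D3 c beside D4 rather than beside D3 a and b. The trypsin gene prss1 had 934, 975 and 1608 CPM in D4 a, b and c, against 64.7, 85.9 and 1431 CPM in D3 a, b and c. The cone transducin gene GNAT2 had 476, 369 and 712 CPM in D4 a, b and c, against 133, 149 and 654 CPM in D3 a, b and c. For fabp10a the values were 302, 476 and 339 CPM on D4, against 47.3, 40.5 and 273 CPM on D3. The blood gene alas2 had 36.1, 40.7 and 28.6 CPM on D4, against 73.9, 95.6 and 28.2 CPM on D3. Another liver gene, tfa, had 1479 CPM in D3 c, between D3 a and b (1414 and 1569 CPM) and below D4 (1584 to 1965 CPM). Whether D3 c was staged or labelled like the other D3 libraries was not tested, and each D3 c value and each fold change over all letters carries this doubt. Results on gene lists, and on genes where it matters, are therefore given also for the a and b libraries alone. That fit covers all days without the c libraries. Within D3 and within D4, a and b were the closest pair. The p-values of that fit thus do not cover the spread to the c libraries.

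In all 3 letters together, 133 genes differed between D4 and D3 at an adjusted p below 0.05 (edgeR quasi-likelihood test with the letter as a block), 0.611% of the genes tested. Of these, 123 genes were higher on D4 (0.566% of genes tested) and 10 genes were lower (0.046%). At an unadjusted p below 0.05 the 2 directions were nearly balanced, with 1469 genes higher (6.75%) and 1373 lower (6.31%). All 123 genes were higher on D4 within each of the 3 letters, and all 10 were lower within each. In 117 of the 123 and in 10 of the 10, the CPM of the D4 libraries did not overlap those of the D3 libraries, where 7.74% and 6.88% of all genes tested had no overlap in these directions. The genes were called on these same libraries, so agreement within letters and lack of overlap carry no weight as support. The median log2 fold change of the genes called higher was 1.86, and that of the genes called lower was -2.53. At least 4-fold differences were found in 50 of the genes called higher and in 6 of the genes called lower.

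**Figure D1:**
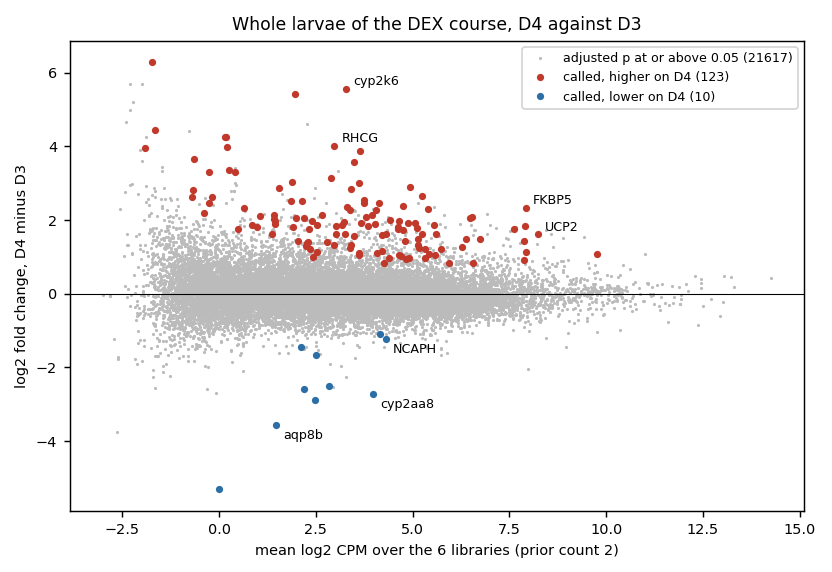
Log2 fold change D4 minus D3 (vertical axis) against mean log2 CPM over the 6 libraries (horizontal axis) for each of the 21750 genes tested. Red points are the 123 genes called higher on D4, blue points the 10 called lower and grey points all others; the called genes lie mostly above 0, while the grey cloud is spread about equally around it.

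The number of calls depended on single libraries. It was 15 without D3 a, 1 without D3 b, 1842 without D3 c, 55 without D4 a, 27 without D4 b and 121 without D4 c. The a and b libraries alone called 3662 of 21643 genes (16.9%), 2313 higher (10.7%) and 1349 lower (6.23%). They called 132 of the 133 genes in the same direction, although the same libraries also entered the first fit. Without the letter as a block 41 genes were called, all of them among the 133. The step was smallest in letter c for 94 of the 123 genes called higher and for 10 of the 10 called lower. Of 33 genes chosen by a fixed rule, 5 stayed called without D3 a, 1 without D3 b, 33 without D3 c, 13 without D4 a, 8 without D4 b and 22 without D4 c. None of them changed direction in any of these fits. That carries no weight as support, since the rule chose these genes from the same libraries.

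Some known glucocorticoid-responsive genes were higher on D4. Of 19 tested genes in a list of glucocorticoid response genes, 3 were called higher and 0 lower, and 9 were higher and 0 lower at an unadjusted p below 0.05. Over all genes tested, 0.566% were called higher and 6.75% were higher at an unadjusted p below 0.05. The list median was 0.56 (0.59 in the a and b libraries, where 9 were called higher), against -0.02 (0.03) for all genes. The a and b libraries called 10.7% of all genes higher. The letters differed little here, with medians of 0.58 in a, 0.73 in b and 0.55 in c. FKBP5, a co-chaperone that lowers the hormone affinity of the glucocorticoid receptor, had 473, 441 and 789 CPM in D4 a, b and c, against 93.4, 82.3 and 164 CPM in D3 a, b and c. Every D4 library exceeded every D3 library, with c the highest on each day. The log2 fold change was 2.33 ± 0.39 (SE, adjusted p = 0.0146). KLF9, a transcription factor induced by steroid and thyroid hormone, had 52.7, 47.8 and 66.5 CPM on D4, against 22.5, 19.6 and 28.1 CPM on D3 (log2 fold change 1.25 ± 0.22, adjusted p = 0.0223). Its steps were alike in the 3 letters. PCK1, the enzyme that commits carbon to glucose production, had 384, 260 and 582 CPM on D4, against 77.4, 128 and 279 CPM on D3. The groups overlapped, since D3 c was above D4 b, and the difference was called at the edge of the threshold (log2 fold change 1.43 ± 0.30, adjusted p = 0.0499). The leucine-zipper gene tsc22d3 (GILZ), a target that carries part of the anti-inflammatory action of glucocorticoids in mammals, had 186, 200 and 178 CPM on D4, against 98.1, 107 and 83.6 CPM on D3. The groups did not overlap, but the adjusted p was 0.0844 (0.0042 in the a and b libraries). The receptor gene NR3C1 itself had a log2 fold change of -0.26 (adjusted p = 0.496).

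Other genes have roles in steroid handling, in signalling downstream of hormones or in stress. DDIT4, an inhibitor of mTORC1, had 80.3, 131 and 75.2 CPM on D4, against 19.4, 22.1 and 16.1 CPM on D3 (log2 fold change 2.29 ± 0.31, adjusted p = 0.00507). The gene hsd20b2, whose enzyme in zebrafish turns the cortisol breakdown product cortisone into an excreted 20-hydroxy form, had 31.8, 29.2 and 24.4 CPM on D4, against 6.51, 6.55 and 6.89 CPM on D3 (2.08 ± 0.31, adjusted p = 0.00961). Both genes had narrow D3 values in all 3 letters. HSD11B2, which inactivates cortisol to cortisone and is already counted in the list above, had 62.3, 77.0 and 113 CPM on D4, against 36.0, 38.9 and 49.4 CPM on D3. Its log2 fold change of 1.02 ± 0.38 was not called (adjusted p = 0.275), although it was called in the a and b libraries (adjusted p = 0.0029). SGK3, a kinase activated downstream of PI3-kinase, had 36.4, 39.9 and 32.2 CPM on D4, against 16.0, 19.8 and 17.0 CPM on D3 (1.04 ± 0.15, adjusted p = 0.00961). The stress-induced p53 partner TP53INP1 had 40.2, 37.6 and 33.6 CPM on D4, against 18.7, 20.1 and 16.0 CPM on D3 (1.03 ± 0.18, adjusted p = 0.0211). The genes hsd20b2, SGK3 and TP53INP1 lie outside the naming rule and were picked from the called genes after their values were seen. HSD11B2 lies outside the rule too, since it was neither called nor among the 4 list members with the lowest p.

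**Figure D2:**
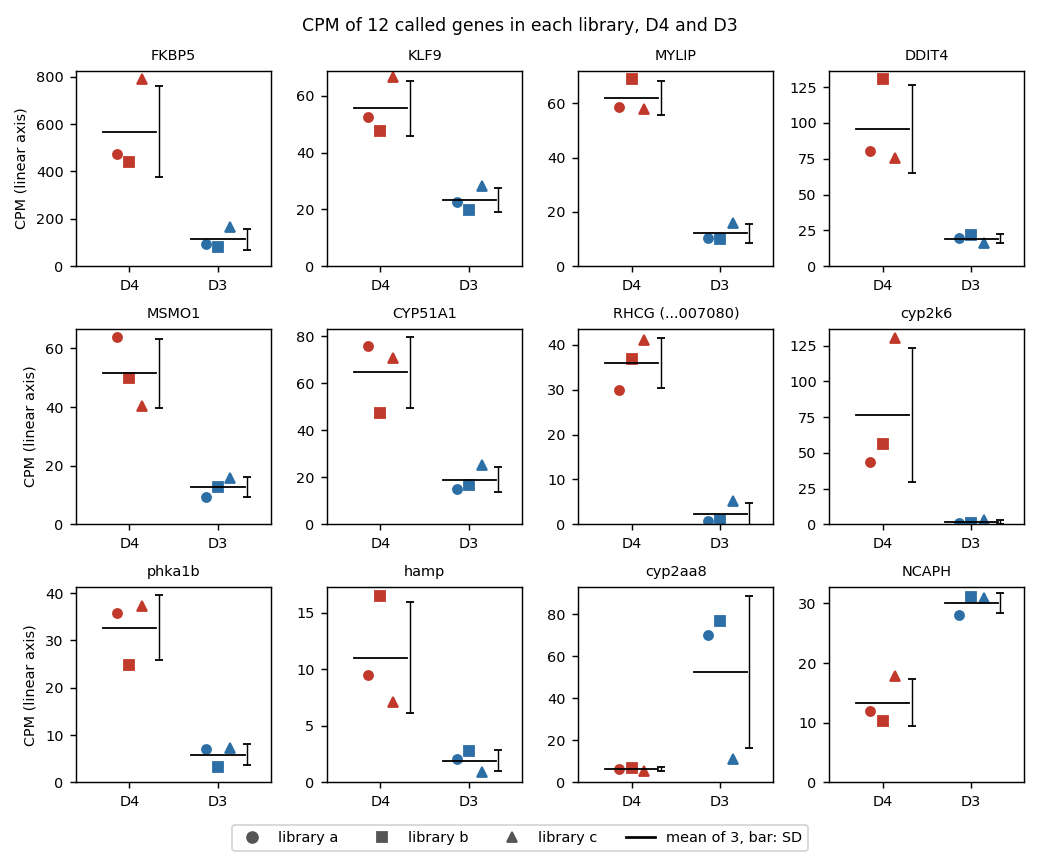
CPM of 12 called genes (linear vertical axes starting at 0) in the 3 D4 libraries (red) and the 3 D3 libraries (blue); marker shape gives the letter, the line the mean of 3 and the bar the SD. FKBP5 averaged 568 CPM on D4 and 113 CPM on D3, while cyp2aa8 averaged 6.21 CPM on D4 and 52.6 CPM on D3, where the c library lay far below a and b.

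The gene with the smallest p was MYLIP, whose product is a ubiquitin ligase that sends the low-density lipoprotein receptor to degradation in mammals. It had 58.7, 69.0 and 57.7 CPM on D4, against 10.41, 9.85 and 15.9 CPM on D3. The log2 fold change was 2.38 ± 0.19 (adjusted p = 0.000181), and MYLIP was the only gene still called in all 6 fits that left out 1 library.

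Genes of cholesterol synthesis were among the rises. This pathway builds sterols from acetyl-CoA, and its genes are switched on as a group by SREBP transcription factors when sterols in the cell are low. Of 20 tested genes in the list of sterol and fatty acid synthesis, 5 were called higher and 0 lower, and 11 were higher and 0 lower at an unadjusted p below 0.05. In 10 of the 20 the D4 libraries lay above the D3 libraries with no overlap. Of all genes, 0.566% were called higher, 6.75% were higher at that unadjusted p and 7.74% had no overlap in this direction. The median was 0.56 (0.67 in the a and b libraries, where 11 were called higher, beside 10.7% of all genes). The steps were of like size in the letters, with medians of 0.68 in a, 0.47 in b and 0.45 in c.

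MSMO1, which removes methyl groups from the sterol ring, had 64.0, 49.998 and 40.4 CPM on D4, against 9.23, 12.7 and 16.0 CPM on D3 (log2 fold change 1.99 ± 0.28, adjusted p = 0.0074). CYP51A1, the lanosterol demethylase, had 75.8, 47.1 and 70.6 CPM on D4, against 15.1, 16.7 and 25.1 CPM on D3 (1.79 ± 0.31, adjusted p = 0.0198). In both genes the lowest D4 library lay well above the highest D3 library. SQLE (ENSDARG00000079946), the squalene epoxidase, had 24.0, 14.7 and 13.8 CPM on D4, against 3.37, 6.05 and 4.79 CPM on D3 (1.86 ± 0.35, adjusted p = 0.0301), and the other identifier of this symbol had a value of 0.24 (adjusted p = 0.862). HMGCS1, an early enzyme of the pathway, had 108, 51.8 and 91.0 CPM on D4, against 29.9, 30.9 and 47.4 CPM on D3, with D4 b only just above D3 c (1.22 ± 0.25, adjusted p = 0.0499). Of the list members not called, LSS (lanosterol synthase) had a log2 fold change of 1.37 (adjusted p = 0.128), the fatty acid synthase FASN 0.69 (adjusted p = 0.188) and the lipoprotein receptor gene ldlra 0.65 (adjusted p = 0.23). Outside the list, and picked after its value was seen, the cholesterol transfer protein STARD4 had 18.8, 21.8 and 13.3 CPM on D4, against 8.17, 10.7 and 6.89 CPM on D3 (1.05 ± 0.22, adjusted p = 0.0488).

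Genes for the transport of nitrogen waste were among the largest rises. Fish release most nitrogen as ammonia through Rh glycoprotein channels, in larvae largely from ionocytes of the skin, and part of it as urea. The gene name table gives the symbol RHCG to 3 identifiers, and all 3 rose. RHCG (ENSDARG00000007080) had 29.9, 36.8 and 41.0 CPM on D4, against 0.71, 1.06 and 5.12 CPM on D3 (log2 fold change 4.02 ± 0.51, adjusted p = 0.00469). RHCG (ENSDARG00000003203) had 86.0, 104 and 93.7 CPM on D4, against 17.0, 14.6 and 13.4 CPM on D3 (2.65 ± 0.34, adjusted p = 0.00487). The step of the second was alike in all letters, while the first stood higher in D3 c than in D3 a and b. RHCG (ENSDARG00000100265) had 33.1, 29.2 and 90.3 CPM on D4, against 4.02, 2.49 and 28.8 CPM on D3, so that D4 b hardly exceeded D3 c (2.47 ± 0.41, adjusted p = 0.0141). The urea transporter SLC14A2 had 7.66, 8.77 and 6.01 CPM on D4, against 1.01, 0.935 and 1.05 CPM on D3 (2.87 ± 0.49, adjusted p = 0.0161).

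Related genes did not all follow. RHBG, a further ammonia channel, had 184, 201 and 184 CPM on D4, against 75.5, 75.1 and 162 CPM on D3. Its log2 fold change of 0.95 ± 0.27 was not called (adjusted p = 0.166) but was 1.41 and called in the a and b libraries (adjusted p = 0.00014). RHAG, the form of red blood cells, had 234, 265 and 223 CPM on D4, against 200, 202 and 218 CPM on D3 (0.22 ± 0.23, adjusted p = 0.724). Genes with a role in supplying protons in ionocytes were not called. The proton pump subunit ATP6V1A, on 2 identifiers, had log2 fold changes of -0.08 and -0.09 (adjusted p = 0.882 and 0.874), and the carbonic anhydrase ca15a had 0.14 (adjusted p = 0.825). The letters went different ways for ATP6V1A (ENSDARG00000034534), with 148, 102 and 301 CPM on D4, against 147, 151 and 254 CPM on D3. Whole-larva RNA does not show how much of these transcripts came from ionocytes. Read sharing among the RHCG copies could not be judged, because the treatment of reads that match several genes was not given in the sources used here. Enzymes of ammonia and urea metabolism went in different directions. Called higher were the glutaminase GLS2 with 14.3, 11.3 and 4.97 CPM on D4, against 3.49, 1.18 and 2.15 CPM on D3 (2.06 ± 0.35, adjusted p = 0.016), and the mitochondrial arginase ARG2 with 59.8, 51.2 and 66.2 CPM on D4, against 13.9, 16.8 and 38.3 CPM on D3 (1.499 ± 0.25, adjusted p = 0.0146). CPS1, which feeds ammonia into the urea cycle, had 2.91, 1.104 and 5.44 CPM on D4, against 8.52, 9.60 and 5.34 CPM on D3. It was not called (-1.49 ± 0.47, adjusted p = 0.222) but was called lower in the a and b libraries (-2.17, adjusted p = 0.003). RHBG, RHAG, ATP6V1A, ca15a, GLS2, ARG2 and CPS1 were chosen for these roles after the values were seen.

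Cytochrome P450 genes, which oxidise steroids, fatty acids and drugs, changed in opposite directions. The largest rise under the naming rule was that of cyp2k6, with 43.4, 56.4 and 130 CPM on D4, against 0.651, 0.811 and 3.36 CPM on D3 (log2 fold change 5.56 ± 0.74, adjusted p = 0.00507). D4 c was the highest D4 library and D3 c the highest D3 library, so the step was large in each letter. POR, the reductase that passes electrons to P450 enzymes, had 172, 140 and 238 CPM on D4, against 48.5, 44.5 and 116 CPM on D3 (1.48 ± 0.23, adjusted p = 0.00967). POR was named after its values were seen, as were 3 enzymes that conjugate drugs and steroids for excretion. These were the glutathione transferase MGST1 (1.63 ± 0.24, adjusted p = 0.00961) and the sulfotransferases sult2st1 (1.63 ± 0.22, adjusted p = 0.00566) and sult1st1 (0.85 ± 0.17, adjusted p = 0.0405).

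In contrast, 3 genes of the fish-specific CYP2AA family were among the 10 genes called lower. The gene cyp2aa8 had 6.32, 7.08 and 5.23 CPM on D4, against 70.0, 76.7 and 11.0 CPM on D3 (log2 fold change -2.71 ± 0.49, adjusted p = 0.0232). The gene cyp2aa9 had 2.85, 3.70 and 0.725 CPM on D4, against 22.7, 29.1 and 4.57 CPM on D3 (-2.88 ± 0.55, adjusted p = 0.032). The gene cyp2aa4 had 2.85, 2.73 and 4.04 CPM on D4, against 18.6, 24.7 and 8.10 CPM on D3 (-2.49 ± 0.49, adjusted p = 0.0387). In each of them D3 c lay below D3 a and b and above the D4 libraries. By DESeq2 with the same block, cyp2aa4 and cyp2aa8 were called (adjusted p = 0.019 for cyp2aa8) and cyp2aa9 was not (adjusted p = 0.144). RefSeq's GRCz12tu annotation, used only for neighbourhood, lists 10 cyp2aa genes close together on the same chromosome. It counts 11 protein-coding genes between the first and the last of them. In the order of the 10 cyp2aa genes, cyp2aa4, cyp2aa8 and cyp2aa9 hold places 5, 6 and 7.

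The other CYP2AA genes tested did not share 1 direction, and cyp2aa6 was not matched to a tested identifier. The genes cyp2aa2, cyp2aa3 and cyp2aa11 had log2 fold changes of -0.97, -1.92 and -1.04 (adjusted p = 0.454, 0.173 and 0.538), and that of cyp2aa3 was called in the a and b libraries (adjusted p = 0.00043). The genes cyp2aa1 and cyp2aa7 had values of 0.19 and -0.26 (adjusted p = 0.799 and 0.634). At the edge of the cluster, cyp2aa12 had 8.72, 9.09 and 11.2 CPM on D4, against 1.07, 1.62 and 10.5 CPM on D3. It was not called over all letters (1.37 ± 0.50, adjusted p = 0.272) and was called higher in the a and b libraries (2.79, adjusted p = 3.3e-06). Neighbouring copies may share reads, so single values within this cluster are uncertain.

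Some genes of phosphorylase kinase, mitochondrial uncoupling, glucose production and lipid droplets were also called higher. Phosphorylase kinase starts the breakdown of glycogen, and its catalytic gamma subunit is held in check by regulatory alpha and beta subunits. The alpha subunit gene phka1b had 35.9, 24.8 and 37.3 CPM on D4, against 6.98, 3.24 and 7.38 CPM on D3 (log2 fold change 2.47 ± 0.49, adjusted p = 0.0405). Of 2 identifiers with the symbol PHKG1, ENSDARG00000069498 had 17.3, 19.2 and 17.3 CPM on D4, against 9.29, 7.48 and 8.10 CPM on D3 (1.11 ± 0.18, adjusted p = 0.0118). The other, ENSDARG00000030604, had 46.0, 54.3 and 54.3 CPM on D4, against 10.5, 9.35 and 18.4 CPM on D3. Its larger log2 fold change of 1.97 ± 0.47 was not called (adjusted p = 0.0968), and it was called in the a and b libraries (2.39, adjusted p = 1.7e-06). The subunits phka1a, PHKA2, PHKB and PHKG2 had log2 fold changes of 0.45, 0.76, 0.15 and 0.18, none called (adjusted p = 0.274, 0.233, 0.817 and 0.711).

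Mitochondrial uncoupling proteins carry protons or metabolites across the inner membrane. UCP2 had 489, 644 and 451 CPM on D4, against 158, 193 and 167 CPM on D3 (log2 fold change 1.61 ± 0.24, adjusted p = 0.00961). The gene ucp3 had 32.4, 22.4 and 40.2 CPM on D4, against 6.81, 6.30 and 14.8 CPM on D3 (1.90 ± 0.36, adjusted p = 0.0329). In both, each D4 library exceeded each D3 library. UCP1 had 268, 210 and 481 CPM on D4, against 66.2, 82.6 and 207 CPM on D3, and was not called (1.498 ± 0.35, adjusted p = 0.0877; 0.00083 in the a and b libraries). Besides PCK1, its mitochondrial form pck2 was called higher, with 382, 376 and 353 CPM on D4, against 127, 147 and 232 CPM on D3 (1.14 ± 0.24, adjusted p = 0.0488). The lipid droplet protein PNPLA3 had 48.5, 46.3 and 45.2 CPM on D4, against 10.2, 14.1 and 15.04 CPM on D3 (1.81 ± 0.30, adjusted p = 0.0142). The genes of this and the preceding paragraph other than phka1b and PCK1 were grouped after their values were seen.

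Further rises came under the naming rule. The gene hamp, which encodes hepcidin, the liver hormone that lowers iron export, had 9.45, 16.5 and 7.15 CPM on D4, against 2.07, 2.74 and 0.937 CPM on D3 (log2 fold change 2.51 ± 0.32, adjusted p = 0.00469). MPEG1 (ENSDARG00000043093), a pore-forming protein of macrophages, had 33.1, 40.0 and 29.4 CPM on D4, against 5.21, 6.05 and 11.0 CPM on D3 (2.14 ± 0.34, adjusted p = 0.0118). A second identifier with the same symbol, ENSDARG00000055290, had 8.27, 15.7 and 12.7 CPM on D4, against 9.23, 10.2 and 11.95 CPM on D3, and the groups overlapped. The antizyme oaz2b, an inhibitor of polyamine synthesis, had 27.8, 34.02 and 25.5 CPM on D4, against 3.37, 2.68 and 6.00 CPM on D3 (2.83 ± 0.42, adjusted p = 0.00961). The organic cation transporter SLC22A2 had 35.2, 30.1 and 49.9 CPM on D4, against 4.91, 5.24 and 14.2 CPM on D3 (2.28 ± 0.42, adjusted p = 0.0269). The mesothelin-like gene mslna and the calmodulin-dependent kinase kinase camkk1b rose by 3.02 ± 0.52 (adjusted p = 0.0178) and 2.36 ± 0.38 (adjusted p = 0.0126) on the log2 scale, and neither overlapped between the days.

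Beside the CYP2AA genes, 6 named genes fell. The aquaporin gene aqp8b, a water channel, had 0.727, 1.104 and 0.57 CPM on D4, against 14.3, 18.8 and 2.20 CPM on D3 (log2 fold change -3.55 ± 0.54, adjusted p = 0.0142). DESeq2 did not call it (adjusted p = 0.086). ABRA, an actin-binding activator of muscle gene transcription, had 1.73, 0.844 and 3.68 CPM on D4, against 7.81, 9.98 and 16.0 CPM on D3 (-2.57 ± 0.47, adjusted p = 0.0282). The cerebellin gene cbln10, of a family of secreted synapse organisers, had 2.91, 3.38 and 3.31 CPM on D4, against 10.9, 13.5 and 5.84 CPM on D3 (-1.65 ± 0.31, adjusted p = 0.0299). The synaptic adhesion gene igsf9b had 14.3, 11.6 and 10.8 CPM on D4, against 32.8, 32.1 and 15.9 CPM on D3 (-1.08 ± 0.20, adjusted p = 0.0294). The remaining pair, exo1 and NCAPH, belong to DNA repair and to chromosome condensation. The gene exo1 had 2.35, 1.88 and 3.83 CPM on D4, against 6.33, 7.05 and 7.55 CPM on D3 (-1.43 ± 0.30, adjusted p = 0.0488), and the condensin subunit NCAPH had 11.96, 10.3 and 17.9 CPM on D4, against 28.1, 31.0 and 30.9 CPM on D3 (-1.23 ± 0.23, adjusted p = 0.0301). The last gene called lower, ENSDARG00000068947, has a clone name only (-5.30 ± 0.61, adjusted p = 0.00469).

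Genes of cell division were lower on D4 in nearly every member, although no list member was called, beside 0.046% of all genes called lower. Of 21 tested mitosis genes, 20 had a negative log2 fold change, 16 were lower and 0 higher at an unadjusted p below 0.05, and in 17 the D4 libraries lay below the D3 libraries with no overlap. Of all 21750 genes tested, 11426 had a negative value, 6.31% were lower at that unadjusted p and 6.88% had no overlap in this direction. The list median was -0.89 (-1.03 in the a and b libraries, where 17 were called lower, beside 6.23% of all genes). Within letters the medians were -0.85 in a, -1.26 in b and -0.37 in c. CCNA2, a cyclin of dividing cells, had 27.6, 24.1 and 40.3 CPM on D4, against 62.6, 80.5 and 51.0 CPM on D3 (-1.13 ± 0.30, adjusted p = 0.145). AURKB, a kinase of chromosome segregation, had 18.8, 15.5 and 23.1 CPM on D4, against 34.1, 43.0 and 35.8 CPM on D3 (-1.02 ± 0.26, adjusted p = 0.13). TOP2A, which untangles DNA, had 64.2, 41.6 and 100 CPM on D4, against 129, 136 and 139 CPM on D3 (-1.06 ± 0.29, adjusted p = 0.149). TPX2, a spindle assembly factor, had 38.2, 29.1 and 69.3 CPM on D4, against 80.1, 83.4 and 89.5 CPM on D3 (-1.01 ± 0.27, adjusted p = 0.144). In each of these genes b had the largest and c the smallest step. In whole-larva RNA, fewer cells of a kind and less RNA per cell cannot be told apart.

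All 25 tested DNA replication genes had a negative log2 fold change. None was called, 15 were lower and 0 higher at an unadjusted p below 0.05, and 13 did not overlap. Over all 21750 genes tested, 11426 had a negative value and 0.046% were called lower. At that unadjusted p 6.31% were lower, and 6.88% had no overlap in this direction. The list median was -0.69 (-0.80 in the a and b libraries, where 14 were called lower, beside 6.23% of all genes). Within letters the medians were -0.52 in a, -1.11 in b and -0.35 in c. The DNA polymerase subunit POLE had 14.4, 8.64 and 23.3 CPM on D4, against 25.3, 26.1 and 32.2 CPM on D3 (-0.96 ± 0.28, adjusted p = 0.177). The maintenance methyltransferase DNMT1 and the polymerase genes POLA1 and POLD1 had log2 fold changes of -0.75, -0.77 and -0.76 (adjusted p = 0.137, 0.162 and 0.198). Among 14 tested p53 target genes, 0 were called, beside 0.611% of all genes. At an unadjusted p below 0.05, 4 were higher (6.75% of all genes) and 1 lower (6.31% of all genes). The p53 list median was 0.16 (0.26 in the a and b libraries). The cell cycle inhibitor cdkn1a, which the study disrupts in its other experiment, had 18.7, 19.2 and 7.15 CPM on D4, against 4.62, 6.17 and 5.18 CPM on D3. The step was large in a and b and small in c, and it was not called (1.49 ± 0.52, adjusted p = 0.25) outside the a and b libraries (1.86, adjusted p = 8.3e-05).

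**Figure D3:**
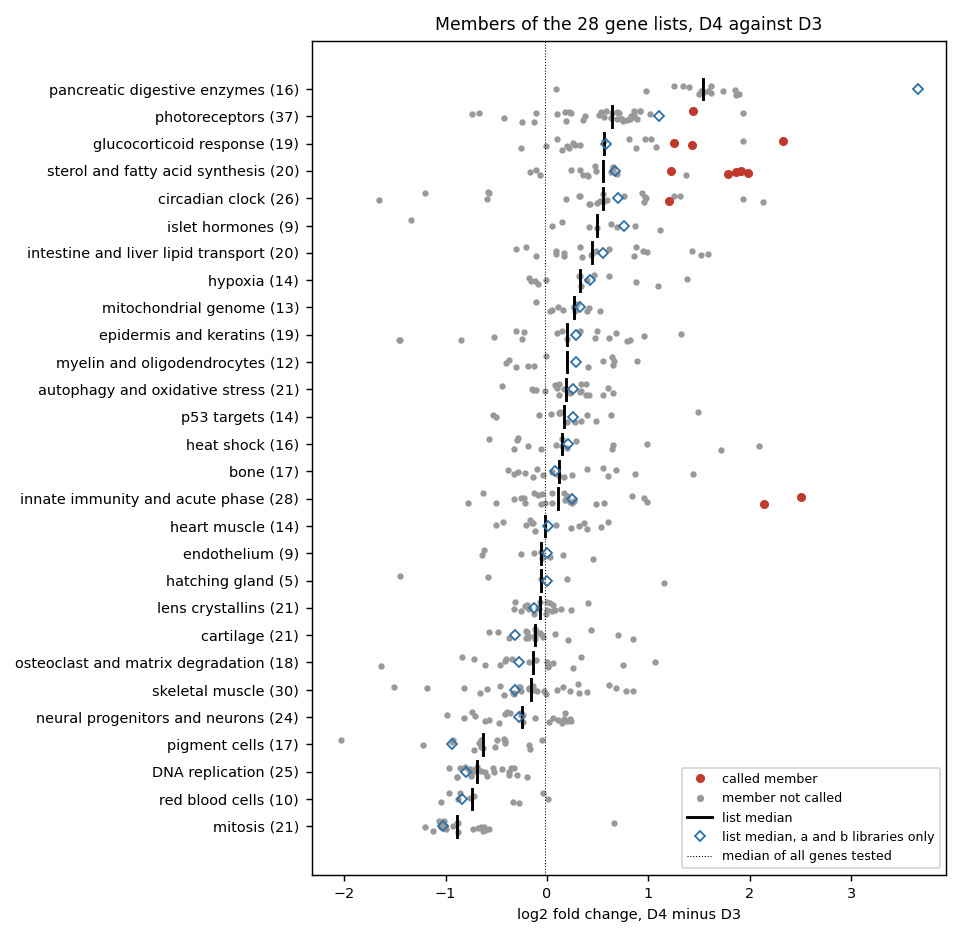
Log2 fold change D4 minus D3 of the tested members of 28 gene lists (1 point per gene, red where called; number tested in parentheses), with the list median (black line), the list median in the a and b libraries alone (open diamond) and the median of all genes tested (dotted line). The called members lie in 5 lists of positive median, while mitosis and DNA replication genes lie below 0 nearly throughout; in the digestive enzymes the 2 medians were 1.54 and 3.66.

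Clock genes shifted in a mixed pattern. The circadian clock runs on transcription factors that activate (BMAL, CLOCK) and repress (PER, CRY) each other, with output factors such as HLF and TEF, and the hour of sampling was not given in the sources used here. Of 26 tested members 1 was called higher (0.566% of all genes) and 0 lower. At an unadjusted p below 0.05, 10 were higher (6.75% of all genes) and 3 lower (6.31% of all genes). The list median was 0.55 (0.70 in the a and b libraries, with 15 called higher and 4 lower). The a and b libraries called 10.7% of all genes higher and 6.23% lower. Of the 26 members, 21 had a positive and 5 a negative log2 fold change, where 10324 of all 21750 genes tested were positive. Within letters the medians were 0.69 in a, 0.60 in b and 0.22 in c. Values ranged from -1.66 (nfil3-5, adjusted p = 0.236) to 2.13. The output factor hlfa had 76.9, 68.4 and 42.7 CPM on D4, against 25.7, 24.9 and 27.0 CPM on D3 (1.204 ± 0.22, adjusted p = 0.0294). The related tefb had 65.4, 73.5 and 25.2 CPM on D4, against 28.2, 24.4 and 14.8 CPM on D3, with D4 c below D3 a (1.21 ± 0.27, adjusted p = 0.0698). CRY1 (ENSDARG00000011583) had 31.2, 30.3 and 26.6 CPM on D4, against 13.9, 14.3 and 19.6 CPM on D3 (0.93 ± 0.22, adjusted p = 0.0949). The activator bmal2 had 5.20, 4.29 and 4.92 CPM on D4, against 14.6, 14.1 and 6.50 CPM on D3 (-1.21 ± 0.28, adjusted p = 0.0949).

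Markers of maturing organs differed strongly in letters a and b and hardly in c. The exocrine pancreas secretes amylase and proteases into the gut. Of 16 tested genes of pancreatic digestive enzymes, 15 were called higher in the a and b libraries, beside 10.7% of all genes. Over all letters 0 of the 16 were called, beside 0.611% of all genes. At an unadjusted p below 0.05, 0 were higher or lower (6.75% and 6.31% of all genes). Their summed level was 5951, 5875 and 9408 CPM in D4 a, b and c, against 430.4, 487 and 8126 CPM in D3 a, b and c. The library labelled D3 c was thus above D4 a and b. The letter medians were 3.79 in a, 3.52 in b and 0.20 in c. Amylase (amy2a) had 213, 146 and 456 CPM on D4, against 10.1, 10.8 and 346 CPM on D3 (1.86 ± 0.88, adjusted p = 0.392; 4.14 with adjusted p = 9.6e-07 in the a and b libraries). The chymotrypsin-like ctrl had 318, 259 and 560 CPM on D4, against 12.4, 19.3 and 403 CPM on D3 (1.86 ± 0.93, adjusted p = 0.412; 4.23 with adjusted p = 1.6e-06 in the a and b libraries). The carboxypeptidase CPA1, on 2 identifiers, had log2 fold changes of 1.62 and 1.34 (adjusted p = 0.414 for each).

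Photoreceptor genes followed the same split. Of 37 tested members 1 was called higher (0.566% of all genes) and 0 lower. In the a and b libraries 25 were called higher (10.7% of all genes) and 2 lower (6.23% of all genes). The median was 0.65 (1.11 in the a and b libraries), with 1.19 in a, 1.09 in b and 0.18 in c. Their summed level was 7189, 7147 and 10714 CPM on D4, against 2949.5, 3218 and 9071 CPM on D3. The retinol-binding protein gene rbp4l had 43.3, 55.6 and 40.5 CPM on D4, against 12.7, 15.2 and 23.1 CPM on D3 and was the only member called (1.44 ± 0.27, adjusted p = 0.0294). Cone arrestin, which shuts off cone opsins, carried the symbol ARR3 on 2 identifiers: ENSDARG00000056511 had 674, 574 and 665 CPM on D4, against 294, 269 and 547 CPM on D3 (0.89 ± 0.25, adjusted p = 0.162), and ENSDARG00000098475 had 137, 152 and 95.8 CPM on D4, against 52.3, 60.7 and 94.8 CPM on D3 (0.86 ± 0.29, adjusted p = 0.246). The rod phosphodiesterase PDE6B (ENSDARG00000011671) had 21.3, 19.5 and 17.2 CPM on D4, against 7.63, 8.92 and 14.6 CPM on D3 (0.86 ± 0.29, adjusted p = 0.242).

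Gut and liver lipid carriers, 20 tested, had 0 called, beside 0.611% of all genes. Their median was 0.44 (0.55 in the a and b libraries, where 7 were called higher, beside 10.7% of all genes). The fatty acid receptor CD36 had 55.7, 72.5 and 99.3 CPM on D4, against 10.8, 10.4 and 95.7 CPM on D3 (1.43 ± 0.57, adjusted p = 0.313; 2.66 in the a and b libraries). Among the 12 largest rises that only the a and b libraries called, chosen after these values were known, were further gut and pancreas genes. The bile acid carrier FABP6 had 47.1, 69.2 and 141 CPM on D4, against 0.533, 2.87 and 156 CPM on D3. The amylase copy amy2al2 had 196, 161 and 120 CPM on D4, against 3.43, 5.55 and 137 CPM on D3. D3 c exceeded every D4 library for FABP6 and lay within their range for amy2al2.

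Pigment and blood genes were lower on D4 in letters a and b. Of 17 tested pigment cell genes all had a negative log2 fold change and 0 were called. Over all 21750 genes tested, 11426 had a negative value and 0.611% were called. In the a and b libraries 9 of the 17 were called lower, beside 6.23% of all genes. The median was -0.63 (-0.93 in the a and b libraries), while the letter medians were -0.76 in a, -1.09 in b and 0.33 in c, so that letter c went the other way. PAICS, a purine synthesis enzyme that iridophores and xanthophores use heavily, had 160, 168 and 90.6 CPM on D4, against 629, 965 and 184 CPM on D3 (-2.04 ± 0.44, adjusted p = 0.0609; -2.21 with adjusted p = 1e-05 in the a and b libraries). The melanin enzyme TYRP1 (ENSDARG00000056151) had 40.2, 34.4 and 142 CPM on D4, against 101, 109 and 87.5 CPM on D3 (-0.93 ± 0.45, adjusted p = 0.398). Of 10 tested red blood cell genes, 0 were called over all letters, beside 0.611% of all genes (median -0.74). In the a and b libraries their median was -0.84 and 4 were called lower, beside 6.23% of all genes. The embryonic alpha globin hbae3 had 552, 761 and 559 CPM on D4, against 1498, 2119 and 572 CPM on D3 (-1.05 ± 0.31, adjusted p = 0.185). The haem synthesis gene alas2 had 36.1, 40.7 and 28.6 CPM on D4, against 73.9, 95.6 and 28.2 CPM on D3 (-0.86 ± 0.32, adjusted p = 0.281).

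**Figure D4:**
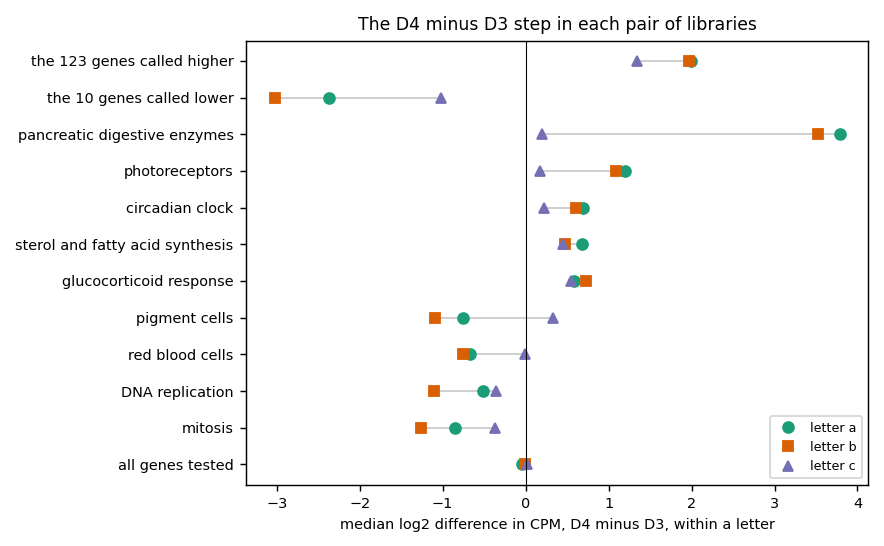
Median log2 difference in CPM D4 minus D3 within each letter (horizontal axis), for the called genes, 9 gene lists and all genes tested; circles are letter a, squares letter b and triangles letter c. Glucocorticoid response and sterol genes have like medians in the 3 letters, while digestive enzymes differ from 3.79 in a to 0.20 in c and pigment genes lie at 0.33 in c, against -0.76 in a and -1.09 in b.

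Skeletal genes are the subject of the DEX model. Of 17 tested bone genes 0 were called, beside 0.611% of all genes. At an unadjusted p below 0.05, 0 were higher or lower (6.75% and 6.31% of all genes). The median was 0.11 (0.08 in the a and b libraries, where 6 were called higher, beside 10.7% of all genes). SPARC, a collagen-binding protein of bone matrix, had 1647, 2411 and 2015 CPM on D4, against 1141, 1230 and 1376 CPM on D3 (0.68 ± 0.35, adjusted p = 0.425). The hypertrophic matrix gene COL10A1 (ENSDARG00000101535) had 2.68, 3.25 and 6.32 CPM on D4, against 0.828, 0.873 and 2.75 CPM on D3 (1.44 ± 0.74, adjusted p = 0.427), and the osteopontin gene spp1 had 8.94, 11.6 and 11.9 CPM on D4, against 2.96, 2.37 and 12.6 CPM on D3 (0.86 ± 0.63, adjusted p = 0.588). In the a and b libraries both were called higher (adjusted p = 0.0039 for COL10A1 and 0.00085 for spp1). The far more highly counted second COL10A1 identifier, ENSDARG00000054753, had a log2 fold change of 0.40 (adjusted p = 0.745). The homeobox gene DLX5 had a log2 fold change of -0.33 (adjusted p = 0.527).

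Of 21 tested cartilage genes 0 were called, beside 0.611% of all genes (median -0.12, and -0.32 in the a and b libraries). At an unadjusted p below 0.05, 0 were higher (6.75% of all genes) and 2 lower (6.31% of all genes). These were the chondrocyte transcription factors SOX5, with 60.0, 59.9 and 44.9 CPM on D4, against 91.0, 96.6 and 50.02 CPM on D3 (-0.48 ± 0.15, adjusted p = 0.194), and SOX6, with 35.7, 39.4 and 39.1 CPM on D4, against 51.7, 56.0 and 42.5 CPM on D3 (-0.38 ± 0.17, adjusted p = 0.371). Of 18 tested genes of osteoclasts and matrix degradation 0 were called, beside 0.611% of all genes. The log2 fold change was positive in 8 of them, up to 1.06, and negative in 10. At an unadjusted p below 0.05, 1 was higher (6.75% of all genes) and 3 lower (6.31% of all genes). The list median was -0.14 (-0.27 in the a and b libraries, where 3 were called lower, beside 6.23% of all genes). ACP5, the acid phosphatase of osteoclasts, had 4.19, 5.71 and 2.23 CPM on D4, against 11.8, 34.1 and 2.09 CPM on D3 (-1.64 ± 0.46, adjusted p = 0.162; -2.07 with adjusted p = 0.00057 in the a and b libraries). CTSK, their collagen-cleaving protease, had 24.4, 27.2 and 25.5 CPM on D4, against 37.99, 44.8 and 34.4 CPM on D3 (-0.61 ± 0.23, adjusted p = 0.28; 0.022 in the a and b libraries). CTSK did not overlap between the days, while for ACP5 D4 c was slightly above D3 c.

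The called genes took different courses on later days, described here without a test. Of the 123 genes called higher, the highest day mean was that of D4 in 26, D5 in 43, D6 in 29 and D7 in 25. Their day mean was above D3 in 123 on D5, 117 on D6 and 113 on D7. All 10 genes called lower stayed below D3 on each later day, with the lowest mean on D5 in 3, on D6 in 3 and on D7 in 4. Since D3 was also the reference by which they were chosen, these counts carry no weight as support.

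Some genes were highest early and others late. SQLE averaged 4.74, 17.5, 12.2, 2.59 and 1.02 CPM over the days D3 to D7, ending below its D3 level. CYP51A1 averaged 19.0, 64.5, 78.1, 22.04 and 8.95 CPM over the same days, and MSMO1 averaged 12.6, 51.5, 64.4, 27.5 and 26.4 CPM. These sterol genes peaked on D4 or D5. The subunit gene phka1b had the same shape, with 5.87, 32.7, 43.3, 16.9 and 5.19 CPM. KLF9 averaged 23.4, 55.7, 126, 181 and 232 CPM on D3 to D7, highest on D7 in each letter. DDIT4 averaged 19.2, 95.4, 150.2, 209 and 298 CPM, and the D7 mean rested on a and b, with 355 and 413 CPM, against 125 CPM in D7 c. FKBP5 averaged 113, 568, 780, 794 and 545 CPM and was nearly level on D5 and D6. It had 657, 721 and 257 CPM in D7 a, b and c, against 672, 720 and 990 CPM on D6. The lower D7 mean of FKBP5 thus rested on c. The uncoupling gene ucp3 had 71.6, 77.5 and 325 CPM in D5 a, b and c, 164, 178 and 828.5 CPM in D6 a, b and c, and 236, 259.6 and 359 CPM in D7 a, b and c. It was thus highest on D7 in a and b and highest on D6 in c. The gene cyp2aa8 was lower still on each later day, with 52.6, 6.21, 0.674, 0.245 and 0.214 CPM.

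**Figure D5:**
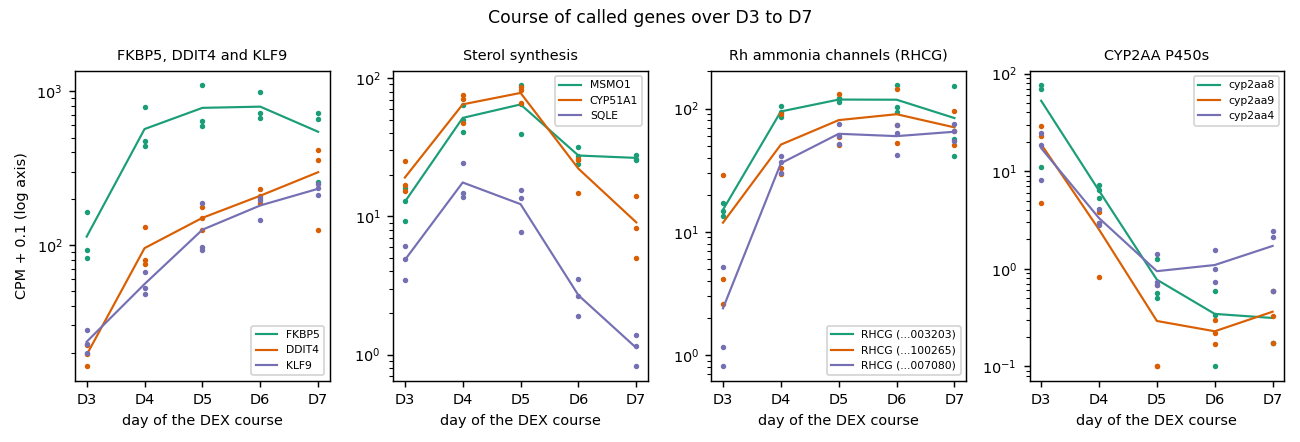
CPM plus 0.1 (log axis) of 12 called genes over D3 to D7, with 1 point per library and a line through the day means. MSMO1, CYP51A1 and SQLE peak on D4 or D5, the day means of KLF9 and DDIT4 are highest on D7 and the CYP2AA genes stay low. The day means of the RHCG copies stay above D3. RHCG (ENSDARG00000003203) had 56.2, 41.4 and 153 CPM in D7 a, b and c, against 86.0, 104 and 93.7 CPM in D4 a, b and c.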

How the data were processed

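Reads were trimmed by the authors (Trim Galore), mapped to GRCz11 using STAR (2.7.8) and assigned to Ensembl genes using HTSeq (0.13.5). They deposited raw counts, with no normalization, in 1 table for the DEX course, and all of its per-sample columns were used. Which annotation release and strand mode were used, and how reads on overlapping or near-identical genes were assigned, is not given in the sources used here. The table of the crispant experiment was not used here.

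Columns were mapped to days by name. The letters a, b and c come from the column headings, while the labels number the replicates, so a letter names a library of a day but no numbered sample. Same-letter libraries deviated together from their day means (r = 0.503, 0.408 and 0.633 for a, b and c between D4 and D3), and the letter was kept as a block. Other-letter pairs of these days had r of -0.579 to 0.398, and those of a with b were nearly as high as the same-letter pairs, so the letters mainly set c apart. Over all days same-letter pairs had r of 0.0725 to 0.749. Pairs of a with b were higher in places (0.517 for D5 b with D4 a, against 0.349 for D5 a with D4 a). They were lower in others (0.356 for D6 b with D5 a, against 0.461 for D6 a with D5 a). Deviations from a day mean cancel out, so an outlying c library makes a and b deviate alike. These values thus cannot tell whether a pairs with a, and b with b, across days. Within D3 and within D4, no pair of libraries agreed within sampling noise. Libraries of D5 to D7 were not compared in this way.

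Counts were tested with edgeR (4.0.16, in R 4.3.3) after TMM scaling and filterByExpr by day, in a quasi-likelihood fit of all 15 libraries with day and letter, and Benjamini-Hochberg adjustment over 21750 genes, with calls below 0.05. The SE is the log2 fold change over the square root of F. CPM are TMM-scaled, and log2 CPM used a prior count of 2. Alternatives were DESeq2 (1.42.0) with the block, RLE scaling, no filter on low counts, at least 10 counts in each of the 6 libraries, no block, the 6 libraries alone, the a and b libraries alone, and leaving out each library.

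Symbols came from a name table that covers 29201 of 32520 identifiers and writes many zebrafish genes as their human counterpart in capitals. List symbols were matched exactly, or without their copy letter where the table has capitals. Named genes were the 15 largest rises and the 10 largest falls among called genes with a mean log2 CPM of at least 1, no overlap between the days and no clone name (9 falls qualified), all called members of the lists, and up to 4 members with the lowest p of a list. The members and lists were chosen with earlier results of these data known. 1 gene chosen by this rule is not reported here.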

Additional observations from a re-analysis of the deposited data

How the results depend on the processing

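Over all letters 133 genes were called. DESeq2 with the letter as a block called 420 (340 higher, 80 lower; 128 of the 133 in the same direction), the fit without the replicate block 41, the 6 libraries of D4 and D3 without a block 10 (109 with the block), and the a and b libraries alone 3662. Leaving out 1 library gave 1 to 1842 calls. RLE scaling (131), no filter on low counts (156) and at least 10 counts in each library (117) moved the count by less than 1.5 times. Of the 33 called genes chosen by the fixed rule, 31 stayed called by DESeq2, 32 with RLE scaling, 33 with no filter, 32 with the stricter filter (1 was not tested), 13 without the block, 21 in the 6 libraries with the block and 3 without it; none changed direction. The kept directions carry no weight as support, since the rule chose these genes from the same libraries. The pairing by letter changed calls as given, and its cause was not tested.

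List medians moved most with the c libraries: digestive enzymes had 0.81 to 3.99 and photoreceptors 0.18 to 1.43 when 1 library was left out, while sterol genes had 0.51 to 0.74, glucocorticoid response genes 0.42 to 0.79 and mitosis genes -1.20 to -0.64. Cartilage genes had -0.57 to 0.18, so their direction was not stable. With 3 libraries a day and 14715318 to 21812411 counts in each, genes with few counts are the least precisely measured.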

Other observations

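Of 24 tested genes of neural progenitors and neurons 0 were called, beside 0.611% of all genes. At an unadjusted p below 0.05, 5 were lower (6.31% of all genes) and 0 higher (6.75% of all genes). The list median was -0.25 (-0.28 in the a and b libraries, where 7 were called lower, beside 6.23% of all genes). The Notch ligand dlb, which keeps neighbouring progenitors undifferentiated, had 19.3, 17.4 and 20.4 CPM on D4, against 38.8, 42.2 and 22.6 CPM on D3 (log2 fold change -0.82 ± 0.22, adjusted p = 0.141). Of 12 tested myelin genes 0 were called, beside 0.611% of all genes (median 0.20). In the a and b libraries their median was 0.28 and 6 were called higher, beside 10.7% of all genes. The myelin basic protein gene mbpa had 68.3, 78.7 and 86.0 CPM on D4, against 24.4, 22.5 and 83.2 CPM on D3 (0.89 ± 0.43, adjusted p = 0.403; 1.71 with adjusted p = 3.6e-05 in the a and b libraries).

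Among 28 tested genes of innate immunity 2 were called higher (hamp and MPEG1) and 0 lower, beside 0.566% and 0.046% of all genes. The list median was 0.11 (0.25 in the a and b libraries). Leukocyte chemotaxin LECT2 (ENSDARG00000033227) and the liver peptide gene leap2 had log2 fold changes of 0.99 and 0.84 (adjusted p = 0.273 and 0.277). Of 30 tested skeletal muscle genes 0 were called, beside 0.611% of all genes (median -0.15, and -0.32 in the a and b libraries). Their summed level was 28781, 27858 and 85534 CPM on D4, against 42440.4, 43577 and 64787 CPM on D3, so that the c libraries held the most muscle RNA on each day and were higher on D4, where a and b were lower. The troponin gene TNNT3 (ENSDARG00000030270) had 196, 285 and 234 CPM on D4, against 635, 715 and 291 CPM on D3 (-1.19 ± 0.37, adjusted p = 0.212), while TNNI2 (ENSDARG00000029995) had 353, 427 and 742 CPM on D4, against 205, 196 and 458 CPM on D3 (0.85 ± 0.28, adjusted p = 0.231). Of 19 tested epidermal genes 0 were called, beside 0.611% of all genes (median 0.20, and 0.29 in the a and b libraries). At an unadjusted p below 0.05, 4 were higher (6.75% of all genes) and 1 lower (6.31% of all genes). The keratin krt94 had 153, 199.6 and 151 CPM on D4, against 81.1, 91.1 and 123 CPM on D3 (0.79 ± 0.22, adjusted p = 0.165), and icn2 had 23.1, 34.9 and 19.7 CPM on D4, against 55.3, 106 and 53.1 CPM on D3 (-1.46 ± 0.48, adjusted p = 0.23).

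The other lists had 0 genes called over all letters, beside 0.611% of all genes. With so small a share, 0 calls say little about lists of this size. Hypoxia genes had a median of 0.33 (0.42 in the a and b libraries), with the hypoxia factor EPAS1 (ENSDARG00000057671) at 41.3, 33.7 and 36.0 CPM on D4, against 17.5, 16.3 and 25.6 CPM on D3 (0.88 ± 0.26, adjusted p = 0.181). Genes of autophagy and oxidative stress had a median of 0.19 (0.25), with their regulator NFE2L2 at 89.5, 90.3 and 70.9 CPM on D4, against 46.0, 51.0 and 64.7 CPM on D3 (0.65 ± 0.20, adjusted p = 0.191). Heat shock genes had a median of 0.15 (0.21), mitochondrial genome genes 0.27 (0.32), islet hormones 0.49 (0.76), heart muscle genes -0.02 (0.01), endothelial genes -0.06 (-0.0046), hatching gland genes -0.06 (-0.0047) and lens crystallins -0.07 (-0.13), where the value in parentheses is that of the a and b libraries.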
